A study of Mus musculus with 8 samples.

Results

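The genes described here serve protein folding in the endoplasmic reticulum (ER), ER-associated degradation (ERAD) and the integrated stress response. They are a list of 34 genes named for these functions, of which 33 were measured among 22180 genes on the array. The probe set of Pdia4, a disulfide isomerase, is annotated to several symbols and was not used. The measurements are of hearts from male mice aged 8 to 10 weeks, of the strain labelled C57BL6JRj and called C57BL6/J wild type in the growth protocol. Mice were injected intraperitoneally once at ZT5 (zeitgeber time, in hours of the light cycle), and killed at ZT9. The 5 digoxin mice received 1 mg/kg digoxin, a cardiac glycoside that inhibits the Na/K-ATPase, and the 3 vehicle mice received the solvent of ethanol, propylene glycol, citric acid and sodium phosphate. Another vehicle sample, which would make 4 by the design text, is not analysed here. Values are log2 expression from Affymetrix Mouse Gene 2.0 ST arrays, centred for each probe set by the authors. They give differences between arrays for 1 gene, not absolute levels, and genes cannot be ranked by abundance.

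Secreted and membrane proteins fold in the ER with the help of chaperones and disulfide isomerases, and those that fail are drawn back through the membrane, ubiquitinated and degraded by the proteasome. When unfolded proteins accumulate, the sensors IRE1, PERK and ATF6 start the unfolded protein response, which raises transcription of chaperones and ERAD components. PERK also phosphorylates eIF2 alpha, which slows translation and favours that of ATF4, and ATF4 induces genes of amino acid supply and of stress feedback. In cardiomyocytes the sarcoplasmic reticulum is a specialised part of the same membrane system and stores the calcium for contraction.

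Herpud1 was the only 1 of the 33 genes to pass the test with all arrays. It rose to 1.63 times the vehicle level, a log2 change of 0.71 (95% interval 0.59 to 0.82), while Hspa5, the ER chaperone BiP and a standard marker of the unfolded protein response, had a log2 change of -0.010 (95% interval -0.16 to 0.14). None of the 33 fell. Of the other 32 genes, 31 had an upper 95% bound below the lower bound of Herpud1 (0.59), the exception being Dnajb9 with an upper bound of 0.61. Over all genes, 0.947% rose and 0.415% fell, and the single call among 33 members is a result on Herpud1, not on the list. At an unadjusted p under 0.05, 4 members were higher and 2 lower in digoxin hearts, against 6.32% and 5.99% of all genes. The median log2 change was 0.0080 over the members and -0.011 over all genes, with 17 members above 0 and 16 below. Changes are from limma with Benjamini-Hochberg adjustment over all 22180 genes and a threshold of 0.05 for the adjusted p. Whole hearts were used, so fewer cells of a type and less RNA per cell cannot be told apart.

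**Figure D1:**
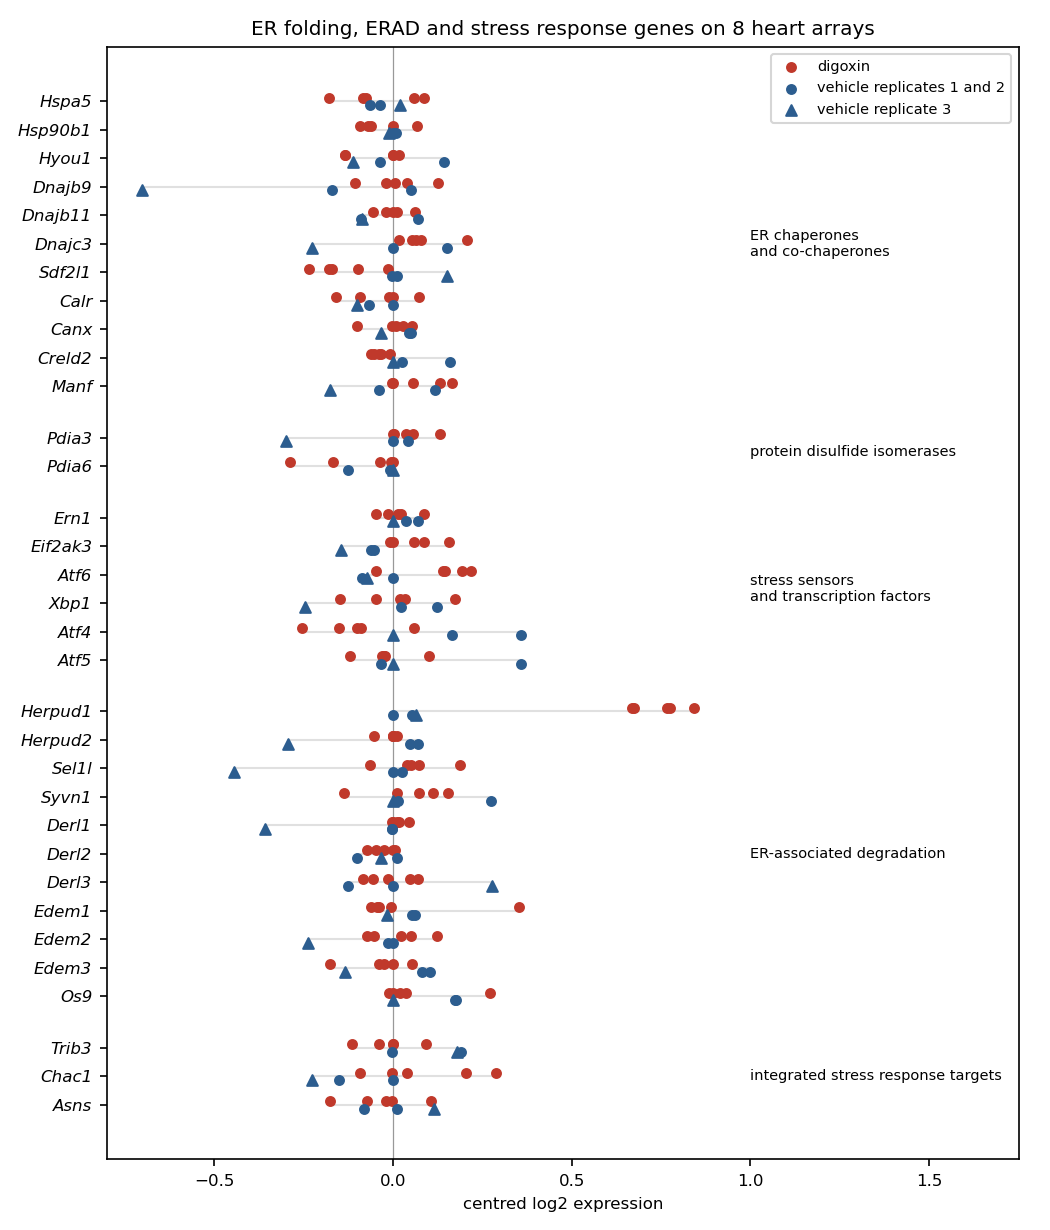
Centred log2 expression (x axis) of the 33 measured genes (rows, grouped by role) on each array, with digoxin arrays in red above vehicle arrays in blue, and vehicle replicate 3 as a triangle. The Herpud1 values of the 5 digoxin arrays lie between 0.67 and 0.84, away from the 3 vehicle arrays at 0 to 0.07, and no other gene separates by as much.

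Herpud1 encodes an ER membrane protein with a ubiquitin-like domain that takes part in the HRD1 ubiquitin ligase complex of ERAD and is known as one of the genes most readily induced by ER stress. Its centred log2 value was 0.68, 0.67, 0.77, 0.77 and 0.84 in digoxin replicates 1 to 5, against 0, 0.05 and 0.07 in vehicle replicates 1 to 3. The groups did not overlap, and the gap between them was several times the spread within either. The log2 change was 0.71 (SE 0.05), with an adjusted p of 0.00043 in limma, which placed Herpud1 at rank 16 by p and at rank 71 by size of rise among all genes. With any single array left out the change lay between 0.68 and 0.72, and it passed in all 8 of these fits (adjusted p between 0.0012 and 0.0040 in limma). With the replicate number as a block it was 0.66 and did not pass (adjusted p = 0.0927), in a fit where 12 genes passed in all. With the mean of the atrial markers as a covariate it was 0.70 (adjusted p = 0.00236).

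The 300-base promoter windows in RefSeq (GRCm38.p6, from 250 bases before to 50 after the annotated start) are shown for Herpud1 and 3 members whose windows share its motifs or carry the classical element. The ER stress response element (ERSE), bound by ATF6 with NF-Y, was searched on both strands as CCAAT and CCACG with 9 bases between them. ERSE-II was searched as ATTGG and CCACG with 1 base between them, the unfolded protein response element as TGACGTGG, and the C/EBP-ATF response element (CARE), bound by ATF4 with a partner, as TGATGNAA. No match overlapped another. Capitals mark the matches, and positions count from 1 at the 5′ end of the window.

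Herpud1, chr8:94386179-94386478, plus strand, with CARE on the opposite strand at 139 to 146 and ERSE-II at 199 to 209:
Herpud1: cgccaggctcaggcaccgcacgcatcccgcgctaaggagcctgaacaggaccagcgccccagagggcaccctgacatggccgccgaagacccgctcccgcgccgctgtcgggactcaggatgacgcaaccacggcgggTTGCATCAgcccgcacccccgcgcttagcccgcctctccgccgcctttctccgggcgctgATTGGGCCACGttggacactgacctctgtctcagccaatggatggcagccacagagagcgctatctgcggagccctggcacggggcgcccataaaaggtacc
Dnajb11, chr16:22857595-22857894, plus strand, with ERSE-II at 258 to 268:
Dnajb11: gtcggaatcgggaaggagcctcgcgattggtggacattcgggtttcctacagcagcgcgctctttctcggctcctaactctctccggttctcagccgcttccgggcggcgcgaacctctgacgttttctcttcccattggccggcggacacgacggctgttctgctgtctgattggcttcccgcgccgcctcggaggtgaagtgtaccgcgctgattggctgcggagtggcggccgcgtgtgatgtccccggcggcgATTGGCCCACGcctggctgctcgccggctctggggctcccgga
Hspa5, chr2:34771840-34772139, plus strand, with ERSE at 186 to 204:
Hspa5: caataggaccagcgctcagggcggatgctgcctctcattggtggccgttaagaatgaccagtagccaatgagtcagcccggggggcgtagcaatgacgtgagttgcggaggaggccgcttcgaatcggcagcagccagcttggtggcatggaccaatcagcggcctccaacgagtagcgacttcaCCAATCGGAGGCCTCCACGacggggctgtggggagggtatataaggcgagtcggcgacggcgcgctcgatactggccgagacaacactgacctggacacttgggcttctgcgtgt
Asns, chr6:7693160-7693459, minus strand, written along the gene, with CARE at 228 to 235:
Asns: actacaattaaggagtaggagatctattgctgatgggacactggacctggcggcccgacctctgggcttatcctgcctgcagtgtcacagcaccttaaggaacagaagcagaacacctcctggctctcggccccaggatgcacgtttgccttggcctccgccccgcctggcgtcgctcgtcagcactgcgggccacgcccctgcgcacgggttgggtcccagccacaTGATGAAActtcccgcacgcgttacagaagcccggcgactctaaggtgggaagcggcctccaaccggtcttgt

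Of the 34 genes, 30 had a window in the table. ERSE was found in 9 of them, Hspa5, Hsp90b1, Dnajc3, Calr, Canx, Creld2, Pdia6, Syvn1 and Derl3, and in 0.119% of all 32851 windows. The log2 changes of these 9 genes lay between -0.10 and 0.11, and none passed. ERSE-II was found in Herpud1 and Dnajb11 and in 0.0365% of all windows, and Dnajb11, a co-chaperone of BiP, had a change of 0.04 (95% interval -0.08 to 0.15). CARE was found in Herpud1, Trib3, Chac1 and Asns and in 3.97% of all windows. Herpud1 was the only member whose window held both ERSE-II and CARE, and the share of all windows holding both was not counted. The letters TGACGTGG were in no member's window and in 0.676% of all windows. These matches describe the letters of the windows and were not tested for binding.

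The ER chaperones gave no call among 11 genes, with changes between -0.19 and 0.28 and a median of -0.010. Hspa5 had 0.06, 0.09, -0.08, -0.18 and -0.07 in digoxin hearts and -0.07, -0.04 and 0.02 in vehicle hearts, so that the digoxin arrays enclosed the vehicle arrays. Hsp90b1, which encodes the ER paralogue of HSP90 (GRP94), stood at -0.03 (95% interval -0.14 to 0.08). The lectin chaperones calreticulin (Calr, 0.02) and calnexin (Canx, -0.02) had 95% intervals of -0.12 to 0.15 and -0.13 to 0.09. Hyou1, a nucleotide exchange factor for BiP, stood at -0.05. The ER-resident Manf, which is also secreted under ER stress, stood at 0.10.

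Sdf2l1, a component of an ER chaperone complex, had -0.01, -0.10, -0.17, -0.18 and -0.24 in digoxin hearts, against -0.0018, 0.01 and 0.15 in vehicle hearts. Every digoxin array was below every vehicle array, by a narrow margin, and the log2 change of -0.19 (SE 0.06) did not pass (adjusted p = 0.24 in limma). Creld2, an ER protein with disulfide isomerase activity, also had no overlap, with digoxin arrays between -0.06 and -0.0084 and vehicle arrays between 0 and 0.16, and stood at -0.10 (adjusted p = 0.43 in limma). Among the 33 members 2 had every digoxin array above every vehicle array and 2 had them below, against 4.4% and 3.76% of all genes.

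Dnajb9, a BiP co-chaperone that restrains the sensor IRE1, was the chaperone gene with the largest difference between means. It had 0.13, 0.04, -0.02, -0.10 and 0.0053 in digoxin hearts and 0.05, -0.17 and -0.70 in vehicle hearts. The groups overlapped, and the difference of 0.28 (SE 0.15, adjusted p = 0.48 in limma) came down to 0.07 without vehicle replicate 3. Dnajc3, an inhibitor of PERK that also acts as an ER co-chaperone, likewise stood at 0.11 with all arrays and at 0.0082 without that array. Of the disulfide isomerases, Pdia3, the partner of calnexin and calreticulin, stood at 0.13 and Pdia6 at -0.05, and neither passed.

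Of the 6 sensors and transcription factors, none passed. Ern1, which encodes IRE1 alpha, stood at -0.02 (95% interval -0.12 to 0.08), and Xbp1, whose mRNA IRE1 splices, at 0.04 (95% interval -0.18 to 0.26). The array probe sets were averaged per gene, and splicing of Xbp1 was not measured. Eif2ak3, which encodes PERK, had -0.0088, 0, 0.06, 0.09 and 0.16 in digoxin hearts and -0.06, -0.05 and -0.15 in vehicle hearts. These arrays did not overlap, but the change of 0.15 (SE 0.05) did not pass (adjusted p = 0.28 in limma). Atf6 had 0.22, 0.14, 0.19, -0.05 and 0.14 in digoxin hearts and -0.09, 0 and -0.07 in vehicle hearts. Thus 4 of the 5 digoxin arrays were above all vehicle arrays, and digoxin replicate 4 lay within the range of the vehicle arrays. Its change was 0.18 (95% interval 0.04 to 0.33, adjusted p = 0.28 in limma), and 0.23 without digoxin replicate 4 (adjusted p = 0.0779).

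Atf4, the transcription factor at the centre of the integrated stress response, was lower in its mean. It had 0.06, -0.15, -0.09, -0.10 and -0.25 in digoxin hearts and 0.17, 0.36 and 0 in vehicle hearts, and the groups overlapped through digoxin replicate 1 and vehicle replicate 3. The log2 change was -0.28 (95% interval -0.49 to -0.07, adjusted p = 0.24 in limma). With array weights, which gave vehicle replicate 3 the lowest weight, it was -0.39 and passed (adjusted p = 0.0384), and over all alternatives the adjusted p lay between 0.0384 and 0.678. ATF4 is controlled mainly through translation, which arrays do not measure. Its relative Atf5, also translated preferentially under stress, stood at -0.13, with vehicle replicate 2 at 0.36 and the other 7 arrays between -0.12 and 0.10.

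**Figure D2:**
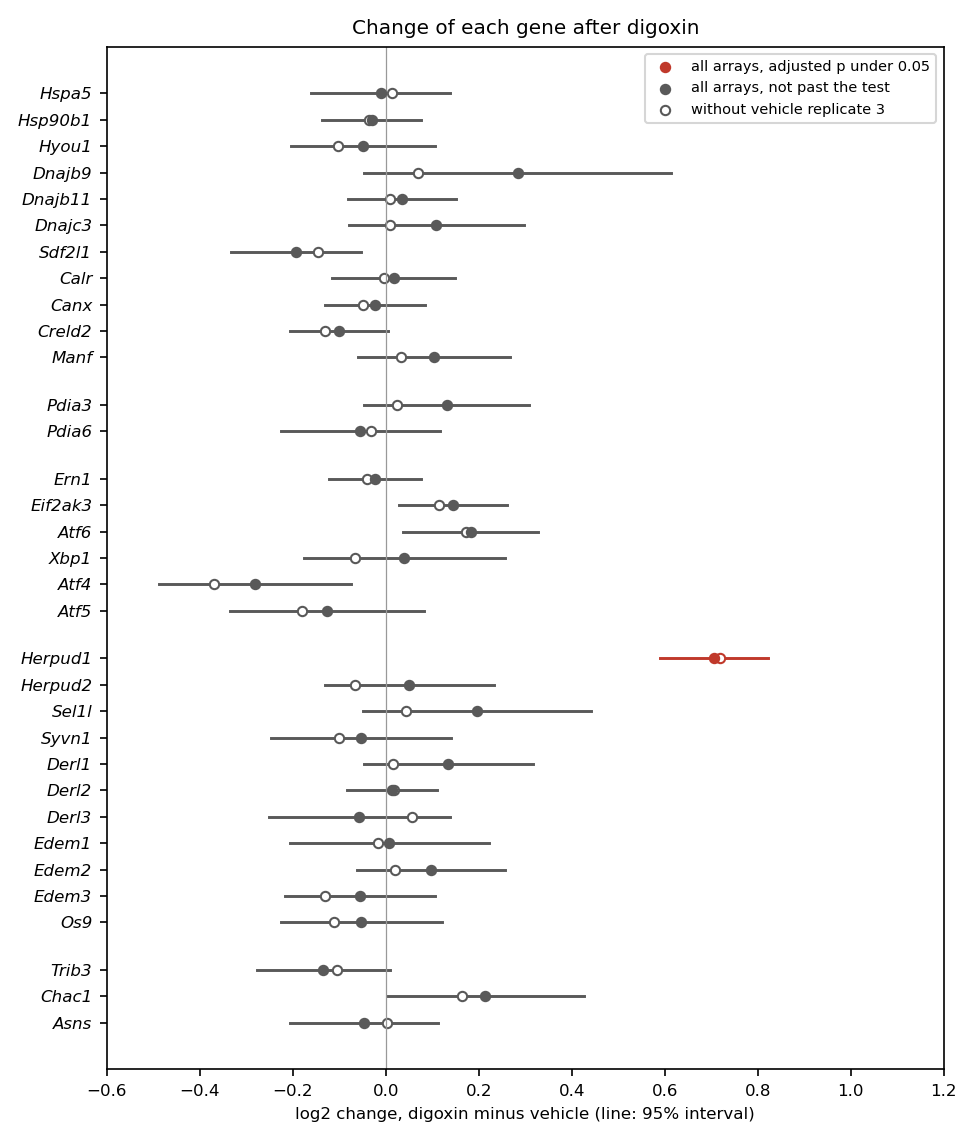
Log2 change, digoxin minus vehicle (x axis), of each measured gene with its 95% interval from limma (filled points and lines, red where the adjusted p is under 0.05), and the change without vehicle replicate 3 (open points). Herpud1 stands at 0.71, and Dnajb9, Sel1l, Derl1 and Pdia3 move towards 0 when vehicle replicate 3 is left out.

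Of the 3 ATF4 targets among the members, none passed. Trib3, a pseudokinase that feeds back on ATF4, stood at -0.13 (95% interval -0.28 to 0.0085). Chac1, which degrades glutathione, had 0.04, 0.29, 0.21, -0.09 and -0.0030 in digoxin hearts and -0.15, 0 and -0.23 in vehicle hearts. The arrays overlapped, and the change was 0.21 (95% interval 0.0022 to 0.43, adjusted p = 0.40 in limma). Asns, asparagine synthetase, stood at -0.05 (95% interval -0.21 to 0.11).

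Among the 11 ERAD genes Herpud1 rose and 10 did not pass. Its paralogue Herpud2 had 0.01, 0, 0, 0 and -0.05 in digoxin hearts and 0.07, 0.05 and -0.29 in vehicle hearts. The digoxin arrays lay between vehicle replicates 1 and 3, and the change was 0.05 (95% interval -0.13 to 0.23). Syvn1, the ubiquitin ligase HRD1 to which HERPUD1 binds, stood at -0.05 (95% interval -0.25 to 0.14). Sel1l, the adaptor of HRD1, had 0.05, 0.19, 0.04, -0.06 and 0.07 in digoxin hearts and 0.03, 0 and -0.44 in vehicle hearts. Its difference of 0.20 (adjusted p = 0.51 in limma) was 0.04 without vehicle replicate 3. Os9, a lectin that hands glycoproteins to this complex, stood at -0.05.

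The derlins, membrane proteins of the retrotranslocation channel, stood at 0.13 (Derl1), 0.01 (Derl2) and -0.06 (Derl3). The Derl1 difference was 0.02 without vehicle replicate 3, which lay at -0.36 while the other 7 arrays lay between -0.0011 and 0.05. The EDEM genes, whose products trim mannose from glycoproteins marked for ERAD, stood at 0.0080 (Edem1), 0.10 (Edem2) and -0.05 (Edem3). Edem1 and Os9 were each high on digoxin replicate 4, at 0.35 and 0.27, while the other digoxin arrays lay between -0.06 and -0.0061 for Edem1 and between -0.0098 and 0.04 for Os9. On the same array the mean of the 5 measured of 7 T cell markers was 2.24, against -0.11 to 0.18 on the other digoxin arrays and -0.05 to 0.02 on the vehicle arrays. Digoxin replicate 4 was also the highest digoxin array in 10 of the 13 marker lists, and the highest of all 8 arrays in 7. Its list means were 1.45 for atrial, 0.56 for adipocyte, 0.45 for mesothelial and 0.24 for macrophage markers, against up to 1.96, 0.08, 0.24 and 0.20 on the vehicle arrays. The centred values do not show which markers are at background, and the part of these cells in the Edem1 and Os9 values was not tested.

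**Figure D3:**
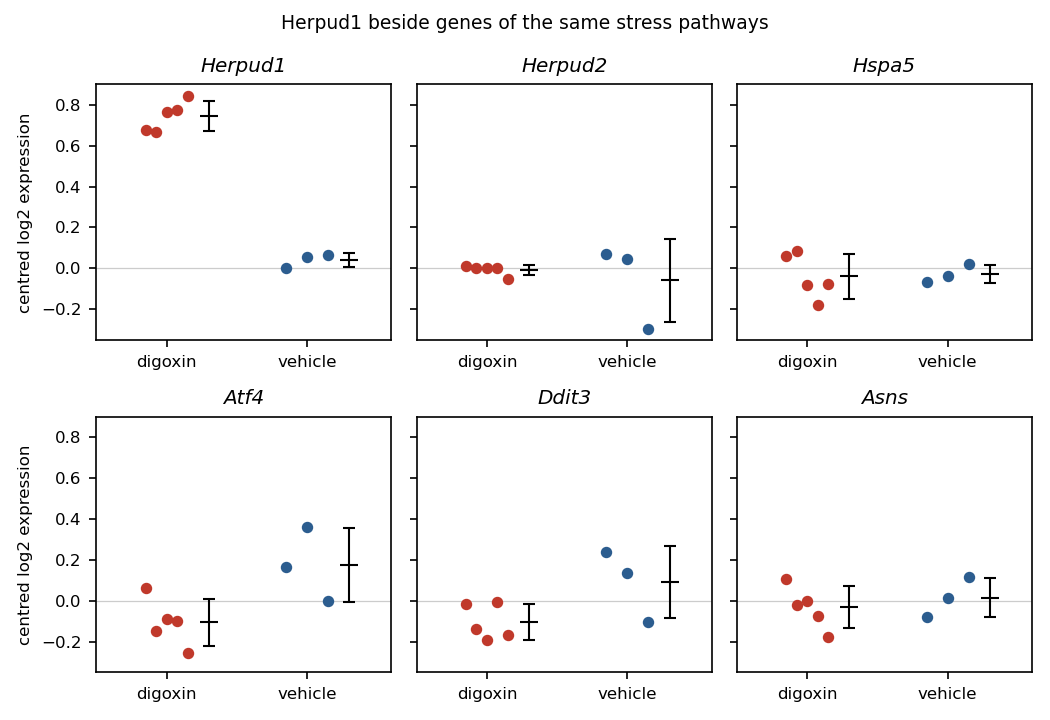
Centred log2 expression (y axis) on each array of Herpud1, its paralogue Herpud2, the chaperone gene Hspa5 and the integrated stress response genes Atf4, Ddit3 and Asns, with digoxin left of vehicle and the mean ± SD in black. Herpud1 is at 0.75 ± 0.07 (SD) on the 5 digoxin arrays and 0.04 ± 0.03 (SD) on the 3 vehicle arrays, and in each of the other 5 panels the arrays overlap.

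Vehicle replicate 3 stood apart from the other arrays by its interquartile range over all probe sets, a trait not particular to these genes. Among the members it was more often the lowest array than the highest, and over all genes the reverse held. The interquartile range of its values over all probe sets was 0.216, against 0.0792 to 0.115 on the other arrays. It was the lowest of the 8 arrays in 11 of the 33 members and the highest in 3, that is in 33.3% and 9.09%, against 25.6% and 28.8% of all genes. The 11 were Dnajb9, Dnajc3, Manf, Pdia3, Eif2ak3, Xbp1, Herpud2, Sel1l, Derl1, Edem2 and Chac1. Without this array the median change over the members was -0.0049, 16 were above 0 and 17 below, and Herpud1 remained the only call (0.72, adjusted p = 0.0012 in limma). Without it Manf stood at 0.03, Pdia3 at 0.02 and Edem2 at 0.02, while Hyou1 stood at -0.10, Syvn1 at -0.10, Edem3 at -0.13 and Os9 at -0.11.

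In the 10 neighbouring lists vehicle replicate 3 was the lowest array for between 30.4% (cytosolic heat shock proteins) and 76.9% of the measured genes, and for 107 of 205 genes in all (52.2%). The share was 33.3% among other ATF4 targets and 42.9% among mitochondrial chaperones and proteases. It was the lowest array in 19 of 27 genes of the translocon, signal peptidase and oligosaccharyltransferase (70.4%), in 8 of 12 genes of glycan trimming and the calnexin cycle (66.7%) and in 10 of 13 genes of the eIF2 kinases, phosphatase subunits, eIF2 and eIF2B (76.9%), a list of translation control. The median log2 change of the translocon group was 0.04 with all arrays and -0.03 without vehicle replicate 3, that of glycan trimming 0.04 and -0.0042, and that of the eIF2 group 0.13 and 0.02.

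**Figure D4:**
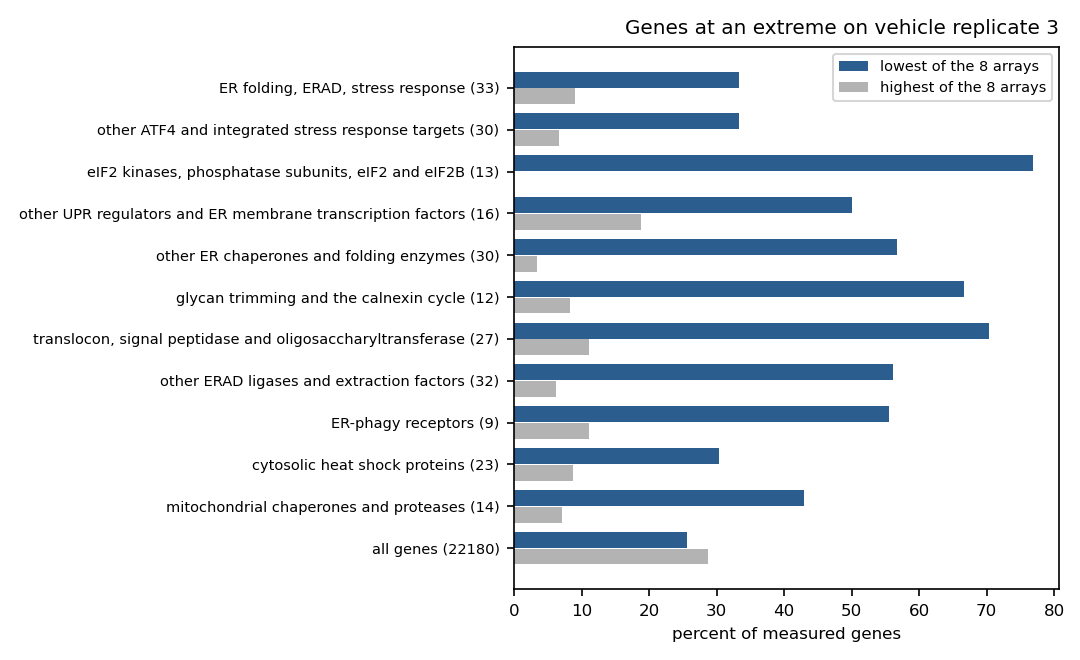
Percent of measured genes (x axis, number of genes in brackets) for which vehicle replicate 3 was the lowest (blue) or the highest (grey) of the 8 arrays, for the ER folding, ERAD and stress response genes, the 10 neighbouring lists and all genes. Over all genes the shares are 25.6% lowest and 28.8% highest, and in the translocon list they are 70.4% and 11.1%.

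Around the 34 genes, 10 lists of neighbouring pathways were described, with 205 of 231 genes measured, of which 3 rose and 1 fell, against 0.947% and 0.415% of all genes. The other targets of ATF4 and the integrated stress response held 2 of the rises among 30 measured genes, with a median log2 change of 0.09. In this list 21 genes were above 0 and 9 below. At an unadjusted p under 0.05 in limma, 8 were higher and 1 lower (6.32% and 5.99% of all genes). In 7 every digoxin array was above every vehicle array (4.4% of all genes). The list was chosen with earlier results of these data known, so these counts only describe it. Ddit4, an inhibitor of mTORC1, had 1.01, 1.37, 1.38, 1.59 and 1.21 in digoxin hearts and -0.83, -0.48 and -0.71 in vehicle hearts, a change of 1.98 (SE 0.13, adjusted p = 0.00026 in limma). Cebpb, a transcription factor of the C/EBP family, had 0.38, 0.31, 0.41, 0.35 and 0.49 in digoxin hearts and -0.23, -0.24 and -0.31 in vehicle hearts, a change of 0.64 (SE 0.05, adjusted p = 0.00057 in limma). In both genes the groups were far apart, and both passed in all 8 fits that left out 1 array. With the replicate number as a block Cebpb did not pass (adjusted p = 0.12) and Ddit4 did (adjusted p = 0.0264). Ddit4 and Cebpb are also known targets of other pathways, glucocorticoid signalling among them.

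Cth, Gpt2 and Slc3a2, genes of amino acid supply in this list, came next by p and did not pass with all arrays. They were named after their values were seen. Cth, which makes cysteine, had 0.28, 0.15, 0.13, 0.12 and 0.21 in digoxin hearts and -0.02, -0.10 and -0.19 in vehicle hearts, a change of 0.29 (adjusted p = 0.051 in limma). It passed after quantile normalization (adjusted p = 0.0349), with arrays centred on the median (0.0492) and with array weights (0.0270), and in none of the 8 fits that left out 1 array. Quantile normalization was applied here to the already centred values, and so gives every array the same spread, vehicle replicate 3 included. Gpt2, an alanine aminotransferase, stood at 0.33 (adjusted p = 0.074 in limma), and passed with array weights (adjusted p = 0.0118) and when both digoxin replicate 4 and vehicle replicate 3 were left out (adjusted p = 0.0386). Slc3a2, the heavy chain of amino acid transporters, stood at 0.31 (adjusted p = 0.26 in limma), and at 0.17 without vehicle replicate 3. In all 3 genes every digoxin array was above every vehicle array. Other genes of amino acid supply in the list went in both directions, and none passed. Slc7a5 stood at 0.21, Slc7a11 at 0.20, Slc7a1 at 0.15 and Psat1 at 0.08. Slc7a11 was 0.96 on digoxin replicate 4 and lay between -0.08 and 0.02 on the other arrays. Slc7a1 was -0.35 on vehicle replicate 3 and lay between -0.02 and 0.13 on the others. The digoxin arrays of Slc7a5, at 0.18 to 0.36, lay between vehicle replicate 3 at -0.25 and vehicle replicate 2 at 0.38. Mthfd2 stood at 0.19 (adjusted p = 0.34 in limma), Aldh18a1 at -0.13, Shmt2 at -0.06, Psph at -0.05 and Phgdh at -0.0071.

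Ddit3, Ppp1r15a and Atf3, often used to follow this response, did not pass. Ddit3, which encodes the pro-apoptotic factor CHOP, had -0.01, -0.14, -0.19, -0.0070 and -0.17 in digoxin hearts and 0.24, 0.14 and -0.10 in vehicle hearts. Its arrays overlapped through vehicle replicate 3, and its change was -0.20 (95% interval -0.38 to -0.0075, adjusted p = 0.38 in limma). Ppp1r15a, the stress-induced subunit of the eIF2 alpha phosphatase, stood at 0.11 (95% interval -0.0033 to 0.23) with no overlap between groups, and at 0.07 without vehicle replicate 3, its lowest array. Atf3 had 1.24 on digoxin replicate 1 and lay between -0.26 and 0.03 on the other 7 arrays. Eif2ak4, the amino acid sensing kinase GCN2, stood at 0.40 (adjusted p = 0.10 in limma) with no overlap between groups. It passed after quantile normalization (adjusted p = 0.0456), and stood at 0.29 without vehicle replicate 3, its lowest array. Eif5, an initiation factor acting on eIF2, stood at 0.30 (adjusted p = 0.20 in limma), also with no overlap, and at 0.21 without vehicle replicate 3. Dnajc3 is counted both among the members and in the eIF2 list.

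Retreg1, an ER-phagy receptor that directs parts of the ER to lysosomes, rose by 0.27 (SE 0.05, adjusted p = 0.036 in limma). It had 0.16, 0.20, 0.13, 0.10 and 0.02 in digoxin hearts and -0.14, -0.15 and -0.17 in vehicle hearts. Of the 8 fits that left out 1 array it passed in the 1 without digoxin replicate 5, and the adjusted p reached 0.108 in the others. Nfe2l2, which encodes the oxidative stress factor NRF2, a substrate of PERK, fell by 0.40 (SE 0.07, adjusted p = 0.036 in limma). It had -0.19, -0.21, -0.01, -0.20 and -0.16 in digoxin hearts and 0.36, 0.28 and 0.09 in vehicle hearts, and passed in 2 of the 8 such fits, without digoxin replicate 3 and without vehicle replicate 3 (highest adjusted p = 0.121 in the other 6). With the atrial marker covariate neither passed (adjusted p = 0.0617 for each). The 9 measured ER-phagy receptors, Retreg1 included, had a median log2 change of 0.03. At an unadjusted p under 0.05 in limma, 1 of them was higher and 2 were lower (6.32% and 5.99% of all genes). In 1 every digoxin array was above every vehicle array, and in 1 below (4.4% and 3.76% of all genes).

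**Figure D5:**
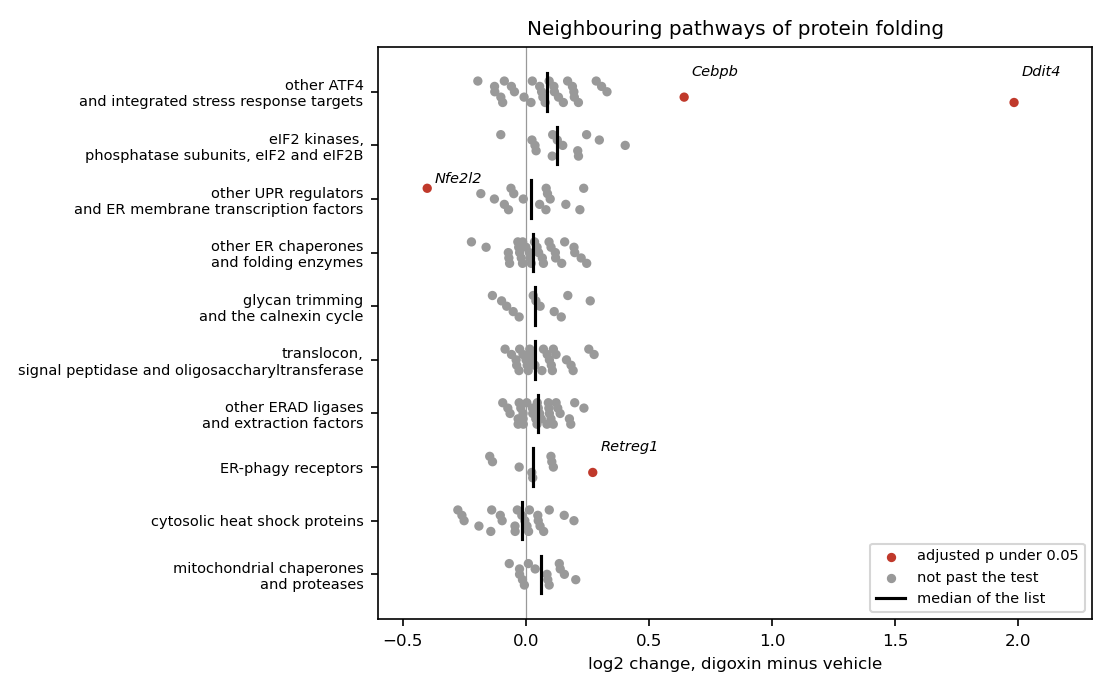
Log2 change, digoxin minus vehicle (x axis), of each measured gene in the 10 neighbouring lists, in red where the adjusted p in limma is under 0.05, with the median of each list as a black line. Ddit4 stands at 1.98, Cebpb at 0.64, Retreg1 at 0.27 and Nfe2l2 at -0.40, and the medians lie between -0.02 and 0.13.

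In the remaining lists no gene passed, and the 2 genes of smallest p in each are given. Among other ER chaperones and folding enzymes Fkbp11 stood at 0.20 and Ppic, both prolyl isomerase genes, at 0.22 (0.14 without vehicle replicate 3). Among glycan trimming genes Uggt1, the folding sensor of the calnexin cycle, stood at 0.14 and the deglycosylase gene Ngly1 at 0.26, with 0.09 for Uggt1 and 0.08 for Ngly1 without vehicle replicate 3. The oligosaccharyltransferase gene Stt3b stood at 0.28 (adjusted p = 0.11 in limma, 0.0286 after quantile normalization and 0.0490 with the atrial marker covariate) and Ddost at 0.18. Without vehicle replicate 3 Stt3b stood at 0.19. Of the ERAD ligases and extraction factors, Rnf103 stood at 0.20 and Selenos at 0.14 (0.08 without vehicle replicate 3). Cytosolic heat shock genes had a median of -0.02, with Hspa1l at -0.14, the co-chaperone gene Bag3 at -0.26 and Hspa1a at -0.25 (95% interval -0.74 to 0.23), which was at -0.41 without vehicle replicate 3. Mitochondrial chaperones and proteases had a median of 0.06, with Lonp1 at 0.16 and Trap1 at 0.14. Without vehicle replicate 3 this median was 0.03, with Lonp1 at 0.06 and Trap1 at 0.04.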

How the data were processed

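Heart RNA of 8 mice was measured on Mouse Gene 2.0 ST arrays (Affymetrix). The authors processed the raw data with the GIANT tool suite, whose modules include Robust Multi-Average normalization and limma, per the labels' design text, and the versions used were not stated. In the deposited table each probe set's log2 values have been centred on a constant of unstated kind, which cancels in differences between arrays. The log base is taken from that method. Of 34351 probe sets, 23521 had 1 symbol in the platform annotation, 1814 several and 9016 none, and probe sets of a gene were averaged. Derl2 and Edem1 had more than 1.

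Digoxin (5 arrays) was compared with vehicle (3 arrays) with limma 3.58.1 in R 4.3.3 across all genes, without covariates, and the 95% intervals are those of this fit, unadjusted. The number of arrays limits the precision. Replicates are taken as separate mice from their titles, and the tests measure only how these arrays vary, which may be technical. Array numbers follow the groups, so their order cannot be told apart from treatment. The fit was tested on simulated data with equal spread on all arrays, and so not for the wider spread of vehicle replicate 3. The members and lists were chosen with earlier results of these data known. All members were named, with the genes past the test in each neighbouring list or its 2 of smallest p, and Ddit3, Ppp1r15a, Atf3 and Hspa1a. Mzb1, Cth, Gpt2, Slc3a2 and the other genes of amino acid supply were named after their values were seen. Promoter windows come from RefSeq. Cell type markers were summarised by their mean per array in 13 lists with 95 of 108 genes measured. In every list the array means of the groups overlapped, and 1 gene fell. The group means differed most in the atrial list, by -0.76 (digoxin minus vehicle). Its array means ran from -0.32 to 1.45 in digoxin hearts and from 0.17 to 1.96 in vehicle hearts. The T cell list came next, at 0.47, with digoxin replicate 4 at 2.24. These list differences were not tested.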

Additional observations from a re-analysis of the deposited data

Results flagged for a closer look

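In 5 of the 59 results looked at, 1 of the 5 digoxin arrays lay far from the other 4 for its group's range (Dixon's ratio above 0.71), and chance alone marks about 1 in 20 such groups. Edem1 was 0.352 on digoxin replicate 4, with the other digoxin arrays at -0.0611 to -0.00606. Os9 was 0.273 on the same array, with the others at -0.00984 to 0.036. Herpud2 was -0.0528 on digoxin replicate 5, with the others at 0 to 0.0126. Nfe2l2 was -0.0145 on digoxin replicate 3, with the others at -0.208 to -0.16, and Atf3 was 1.24 on digoxin replicate 1, with the others at -0.258 to 0.0184. All are centred log2 values.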

How the results depend on the processing

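Herpud1 passed in all 18 alternatives but the replicate block, and 31 of the 33 members kept the same call in every alternative, the exceptions being Herpud1 and Atf4. No called result reversed, though 15 members without a call changed sign in at least 1 alternative. Array weights gave 614 calls over all genes (294 rose, 320 fell) against 302, 2 member calls (Herpud1 and Atf4) and a member median of -0.02177. Quantile normalization of the centred values, which gives all arrays the same spread, gave a median of -0.01536. Leaving out digoxin replicate 4 and vehicle replicate 3 together gave 500 calls (218 rose, 282 fell), a median of -0.01989 and 12 members without overlap between groups (5 above, 7 below). An adjusted p of 0.01 gave 118 calls. Deviations of arrays with the same replicate number correlated at -0.197, -0.0177 and 0.0236. These correlations rest on 3 vehicle arrays and cannot settle whether the numbers paired the arrays. With the number as a replicate block 12 genes and 0 members passed, in a fit that rests on replicates 1 to 3 and has fewer residual degrees of freedom. Leaving out 1 array gave 166 to 374 calls over all genes, with 166 without digoxin replicate 5, 169 without vehicle replicate 2, 170 without digoxin replicate 2 and 174 without digoxin replicate 3, and 1 member call throughout. Members without overlap then numbered 4 to 9, with 9 without vehicle replicate 2 and 7 without digoxin replicate 4 or vehicle replicate 3. The member median lay between -0.01068 and 0.02426. The share of all genes without overlap was not counted when arrays were left out. With fewer arrays groups overlap less often by chance, so these counts and the 12 above are not a result on the members. The causes were not tested. Centred values show no signal over background, so dim probe sets could not be set apart.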

Other observations

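Among the 95 measured marker genes, those of cardiomyocytes included, 1 passed and fell (1.05%, against 0.415% of all genes). It was Mzb1, which encodes an ER protein of antibody-secreting cells. It had -0.0085, -0.07, -0.29, -0.10 and -0.11 in digoxin hearts and 0.17, 0.23 and 0.27 in vehicle hearts, a log2 change of -0.34 (SE 0.06, adjusted p = 0.0462 in limma). Of the 8 fits that left out 1 array it passed in 1, without digoxin replicate 3, and the adjusted p reached 0.135 in the others. The mean of the 9 measured of 11 markers of B and plasma cells, Mzb1 included, lay between 0.04 and 0.05 in vehicle hearts. It was -0.04, -0.07, -0.08, 0.11 and -0.06 in digoxin replicates 1 to 5, so that the groups overlapped through digoxin replicate 4 alone.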
